A study of Mus musculus with 6 samples.

Results

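The 7 sirtuin genes of the mouse, Sirt1 to Sirt7, were taken by name from the 21440 protein-coding genes whose 5′ end could be placed, and their chromatin accessibility was described in ATAC-seq peak lists of spermatogonia-enriched samples. For each gene, every peak that overlapped the stretch from 10 kb upstream of the 5′ end to 10 kb past the 3′ end was collected in each library. This stretch is called the window of the gene, and the 3 kb on either side of the 5′ end are called its promoter. ATAC-seq uses the Tn5 transposase to cut open chromatin and insert adapters, so a peak marks a site where accessible DNA gathered more fragments than its surroundings. The S7KO group held 3 libraries from Sirt7-/- mice and the WT group 3 libraries from wild-type mice, all on the same inbred strain background and all taken at postnatal day (Pnd) 5 without treatment. Each library was made from 50000 cells of testes that had been depleted of somatic cells by plating. According to the study, most cells isolated this way carried PLZF, a marker of undifferentiated spermatogonia, and its figure shows this for WT cells. The libraries are named by the replicate numbers of their titles, which are 1, 2 and 4 in each genotype, while a second label numbers some of them differently. The study calls them biological replicates. Its reporting summary says that replicates came from different mice, but under the ChIP-seq entry, and for ATAC-seq the source animals were not given in the sources used here.

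Sirtuins are enzymes that use NAD+ to remove acetyl and other acyl groups from lysines of histones and other proteins. Members of the family work in different parts of the cell. Chromatin is a substrate of the nuclear members SIRT1, SIRT6 and SIRT7, the last of which gathers in nucleoli. Tubulin is a known target of SIRT2, and the mitochondrial members SIRT3, SIRT4 and SIRT5 modify metabolic enzymes. Because SIRT7 removes acetyl groups from histones, its loss can be asked about not only at its own locus but at the loci of its relatives, and this is the comparison made here.

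All 7 genes had an accessible 5′ end in every library. The sequences below show what lies under those peaks. Each is the stretch of 30 bases before the annotated start with the most motif letters, read 5′ to 3′ on the strand of the gene from the RefSeq promoter table of GRCm38.p6 (mm10), and capitals mark motif matches on either strand. The set shows the targeted gene, Sirt7, then the nuclear relatives Sirt6 and Sirt1, and the most strongly ranked promoters of the family, Sirt2 and Sirt3.
Sirt7, chr11:120625036-120625065, minus strand: CCGGAAGaggtggaaagggccgggcccgcg
Sirt6, chr10:81627572-81627601, minus strand: CTTCCGGcggaagcggcctcaacaagggaa
Sirt3, chr7:140882365-140882394, minus strand: CTTCCGGcaccgcgggcgcgcggggcatgc
Sirt2, chr7:28766565-28766594, plus strand: CCGCCCctgtactgcaccacagCCAATcag
Sirt1, chr10:63339067-63339096, minus strand: GGGCGGggagGGGCGGgtCACGTGacgggg

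Sirt7, Sirt6 and Sirt3 held CCGGAAG or its reverse complement CTTCCGG, the letters of an ETS family motif, which 8.86% of 32851 promoters of 300 bases also held. The GC box GGGCGG, a motif bound by Sp1, was found in 4 of the 7 sirtuin promoters against 35.7% of all promoters, and Sirt1 alone had 7 matches, overlapping ones included. CCAAT, the letters bound by NF-Y, was found in 2 of the 7 against 37.4%. The E-box CACGTG was found only in the Sirt1 promoter, at 2 places, and in 7.15% of all promoters. TGCGCA, letters found in the NRF1 motif, was found only in the Sirt7 promoter and in 7.76% of all promoters. None of the 7 held TATAAA, the TATA box letters that 13.6% of promoters had, or TGACGTCA, the cyclic AMP response element that 1.79% had, and the Sirt4 stretch held none of the motifs searched. Motifs were searched on both strands, and a match describes letters only.

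The promoters differed widely in base composition. The 300 bases run from 250 before to 50 after the start in the promoter table nearest to the 5′ end of the gene, which was the same base for Sirt1, Sirt2, Sirt3 and Sirt7 and lay 146 bp away for Sirt5, 226 bp for Sirt6 and 5967 bp for Sirt4. There, GC content was 79.0% for Sirt1, which is at or above that of 98.7% of promoters. It was 62.0% for Sirt5, 61.0% for Sirt3, 57.3% for Sirt6, 52.0% for Sirt4 and 51.3% for Sirt7, with Sirt2 the lowest, against a median of 52.7% over all promoters. The ratio of observed to expected CpG was between 0.52 at Sirt5 and 1.09 at Sirt1, and all 7 values were above the median of 0.38 over all promoters. Every one of the 7 stretches of 300 bases lay inside a peak in all 6 libraries.

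The 6 lists held between 105754 and 133695 peaks and covered between 81.5 and 108 Mb. WT replicate 2 had the shortest list, the least covered sequence and the lowest median −log10 q, at 5.54 against 7.04 to 8.67 in the others, and the lists do not state sequencing depth. Over all genes, the difference between S7KO and WT in covered length was above 0 in 67.1%, so directions below are read against that tilt. The label of the cells was checked by promoter peaks of marker genes. All 11 spermatogonia markers had a promoter peak in all 6 libraries, but so did 5 of 6 Sertoli, 4 of 5 Leydig and 3 of 3 peritubular myoid markers. So did 2 of 3 endothelial markers, while of 3 macrophage markers Ptprc and Adgre1 had none in any library. Of all protein-coding genes, 74.0% had a promoter peak in all 6 libraries, so these short lists cannot settle which cells were present. An accessible promoter does not show expression, and the share of somatic cells was not measured here.

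Strength was described by rank, the place of a peak in its own list when peaks are ordered by −log10 q, as a percentage, so that a low rank is a strong peak. The best ranked peak in each promoter was used. All 7 sirtuins had a promoter peak in all 6 libraries, against 74.0% of protein-coding genes. Their median ranks over the 6 libraries ran in the order Sirt2 at 0.977%, Sirt3 at 1.56%, Sirt4 at 4.30%, Sirt1 at 5.58%, Sirt6 at 5.95%, Sirt5 at 7.51% and Sirt7 at 10.2%. The Sirt4 value comes mostly from a peak over the 5′ end of its neighbour Pxn. The peak over the 5′ end of Sirt4 itself had a median of 5.37%. The median over genes with a promoter peak in all 6 libraries was 8.04%, so Sirt7 was the only member on its weaker side, and 56.7% of those genes had a promoter at least as strong. For Sirt2 this share was 8.38% and for Sirt3 12.9%. The place of Sirt7 as weakest depended on the measure. Ordered by fold enrichment, Sirt4 had the weakest mean ranks, 43.2% in S7KO and 45.0% in WT, again from the Pxn peak. They were 31.1% and 28.7% at Sirt6 and 26.6% and 29.7% at Sirt7.

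The ranges over libraries did not separate all neighbours in the order by −log10 q. Sirt2, between 0.421% and 1.20%, reached above the lowest Sirt3 value of 1.05%. Sirt3, with a highest value of 3.34%, stayed below every value of Sirt4, whose lowest was 3.64%. From Sirt4 to Sirt7, the range of each gene overlapped that of the next, with Sirt7 the most variable, between 5.62% and 17.8%.

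**Figure D1:**
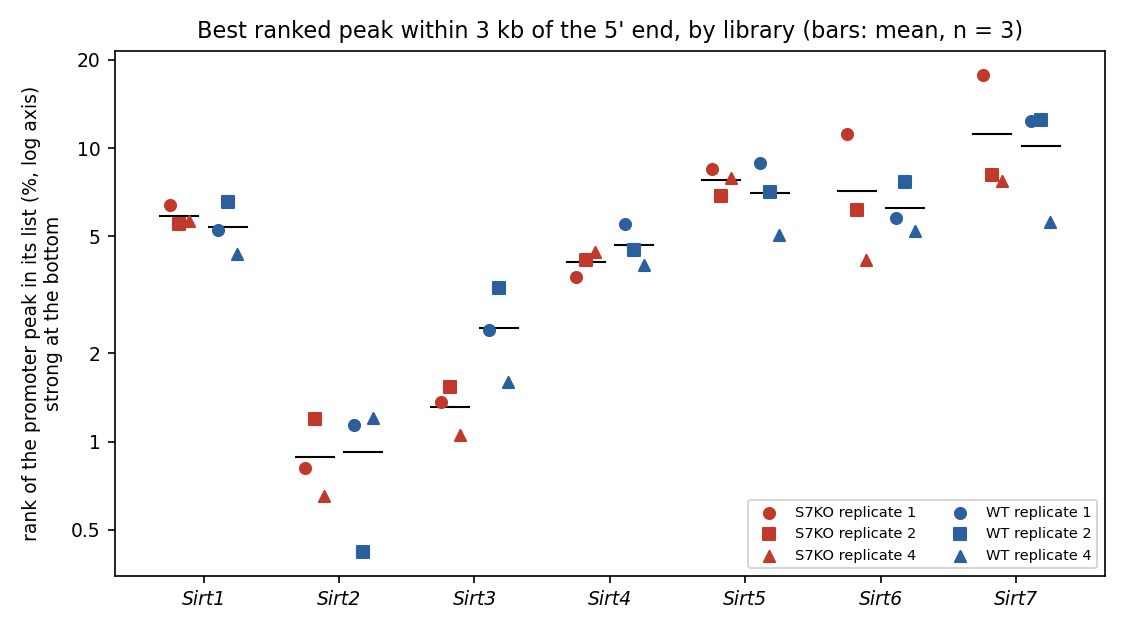
Rank of the best promoter peak of each sirtuin in its own peak list (percent, log axis, strong peaks at the bottom) in the 3 S7KO libraries (red) and the 3 WT libraries (blue), with black bars at the group means. The groups interleave for every gene but Sirt3, whose S7KO values lie between 1.05% and 1.53% and WT values between 1.60% and 3.34%.

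Sirt7, the targeted gene, is on chromosome 11 from 120618371 to 120625014 on the minus strand. Its 5′ end was covered by a peak in each library, within a region from 120624220 to 120626348 that also reaches over the 3′ end of Mafg, a small Maf transcription factor gene on the same strand that ends 102 bases upstream of Sirt7. The rank of the peak was 17.8%, 8.07% and 7.75% in S7KO replicates 1, 2 and 4 and 12.4%, 12.5% and 5.62% in WT replicates 1, 2 and 4. The groups overlapped, with the weakest value in S7KO replicate 1 and the strongest in WT replicate 4. The mean was 11.2% ± 5.68 (SD, n = 3) in S7KO and 10.2% ± 3.94 (SD, n = 3) in WT, a difference of 1.02 percentage points (exact two-sided permutation test, p = 0.8). Ordered by fold enrichment in place of −log10 q, the difference was -3.14 percentage points, so its sign depended on the measure. Without S7KO replicate 1 it was -2.26 and without WT replicate 4 it was -1.25, while without any other library it lay between 2.14 and 2.74.

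The width of the Sirt7 promoter peak set 1 library apart. It was 1989, 2071 and 1212 bp in S7KO replicates 1, 2 and 4 and 2113, 1907 and 1872 bp in WT replicates 1, 2 and 4. The narrow peak of S7KO replicate 4 reached 520 bp upstream of the 5′ end, against 1090 to 1334 bp in the other 5 libraries, while the ends inside the gene lay between 657 and 794 bp downstream in all 6. In S7KO replicate 4 the peak still covered the 3′ end of Mafg, and the stretch it did not cover lay further inside Mafg.

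Inside the Sirt7 gene, no library of either genotype had a peak between the promoter peak and the region at the 3′ end, which begins 6456 bp from the 5′ end. Both ends of the gene lay under peaks in S7KO as in WT. Between those ends the lists hold no peak that could be lost with a deletion, so they give no check of a deletion within that stretch. Which exons the Sirt7-/- allele lacks was not given in the sources used here.

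The region at the 3′ end of Sirt7 lies from 120617057 to 120618558 and covers the 5′ end of Pcyt2, a gene of phosphatidylethanolamine synthesis that begins 423 bases past Sirt7. It was in all 6 lists, with a rank of 16.7%, 14.2% and 16.1% in S7KO replicates 1, 2 and 4 and of 8.44%, 12.7% and 7.82% in WT replicates 1, 2 and 4. Every S7KO library was weaker than every WT library, which was the case for 1.35% of the 90689 regions called in all 6 libraries. It was the only one of the 30 such regions in the sirtuin windows with that order. The fold enrichment did not separate the groups, at 4.75, 4.93 and 4.72 in S7KO and 4.99, 4.57 and 5.23 in WT, and neither did the width, at 1408 to 1427 bp in S7KO and 1397 to 1482 bp in WT.

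Within Pcyt2, a region of 344 bp from 120612657 to 120613000 was called in S7KO replicates 1, 2 and 4 and absent from the WT lists. Its rank was 86.5%, 60.3% and 39.1% and its fold enrichment 2.05, 2.52 and 3.19 in that order, so it was weak in the first and of middle strength in the last. Regions with this pattern made up 0.416% of 158725 regions over the genome. It was the only one of the 44 regions in the sirtuin windows, and it lies outside the window once the flanks are shortened to 5 kb. The opposite pattern, present in the 3 WT libraries and in no S7KO library, made up 0.0743% of all regions and was seen at 0 of the 44.

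The remaining peaks around Sirt7 differed little between genotypes. The region from -9194 to -7467 bp relative to the 5′ end, within Mafg and over the 5′ end of the lncRNA Gm17586, had ranks of 4.63% to 6.06% in S7KO and 4.14% to 5.93% in WT. The region over the 5′ end of Npb, which encodes neuropeptide B, had ranks of 38.1% to 44.8% in S7KO and 36.0% to 39.1% in WT, and both pairs of ranges overlapped. The total length covered by peaks in the Sirt7 window was 6576, 6450 and 5824 bp in S7KO and 6440, 6088 and 6093 bp in WT, again overlapping (means 6283 ± 403 and 6207 ± 202 bp, SD, n = 3, exact permutation p = 0.8).

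**Figure D2:**
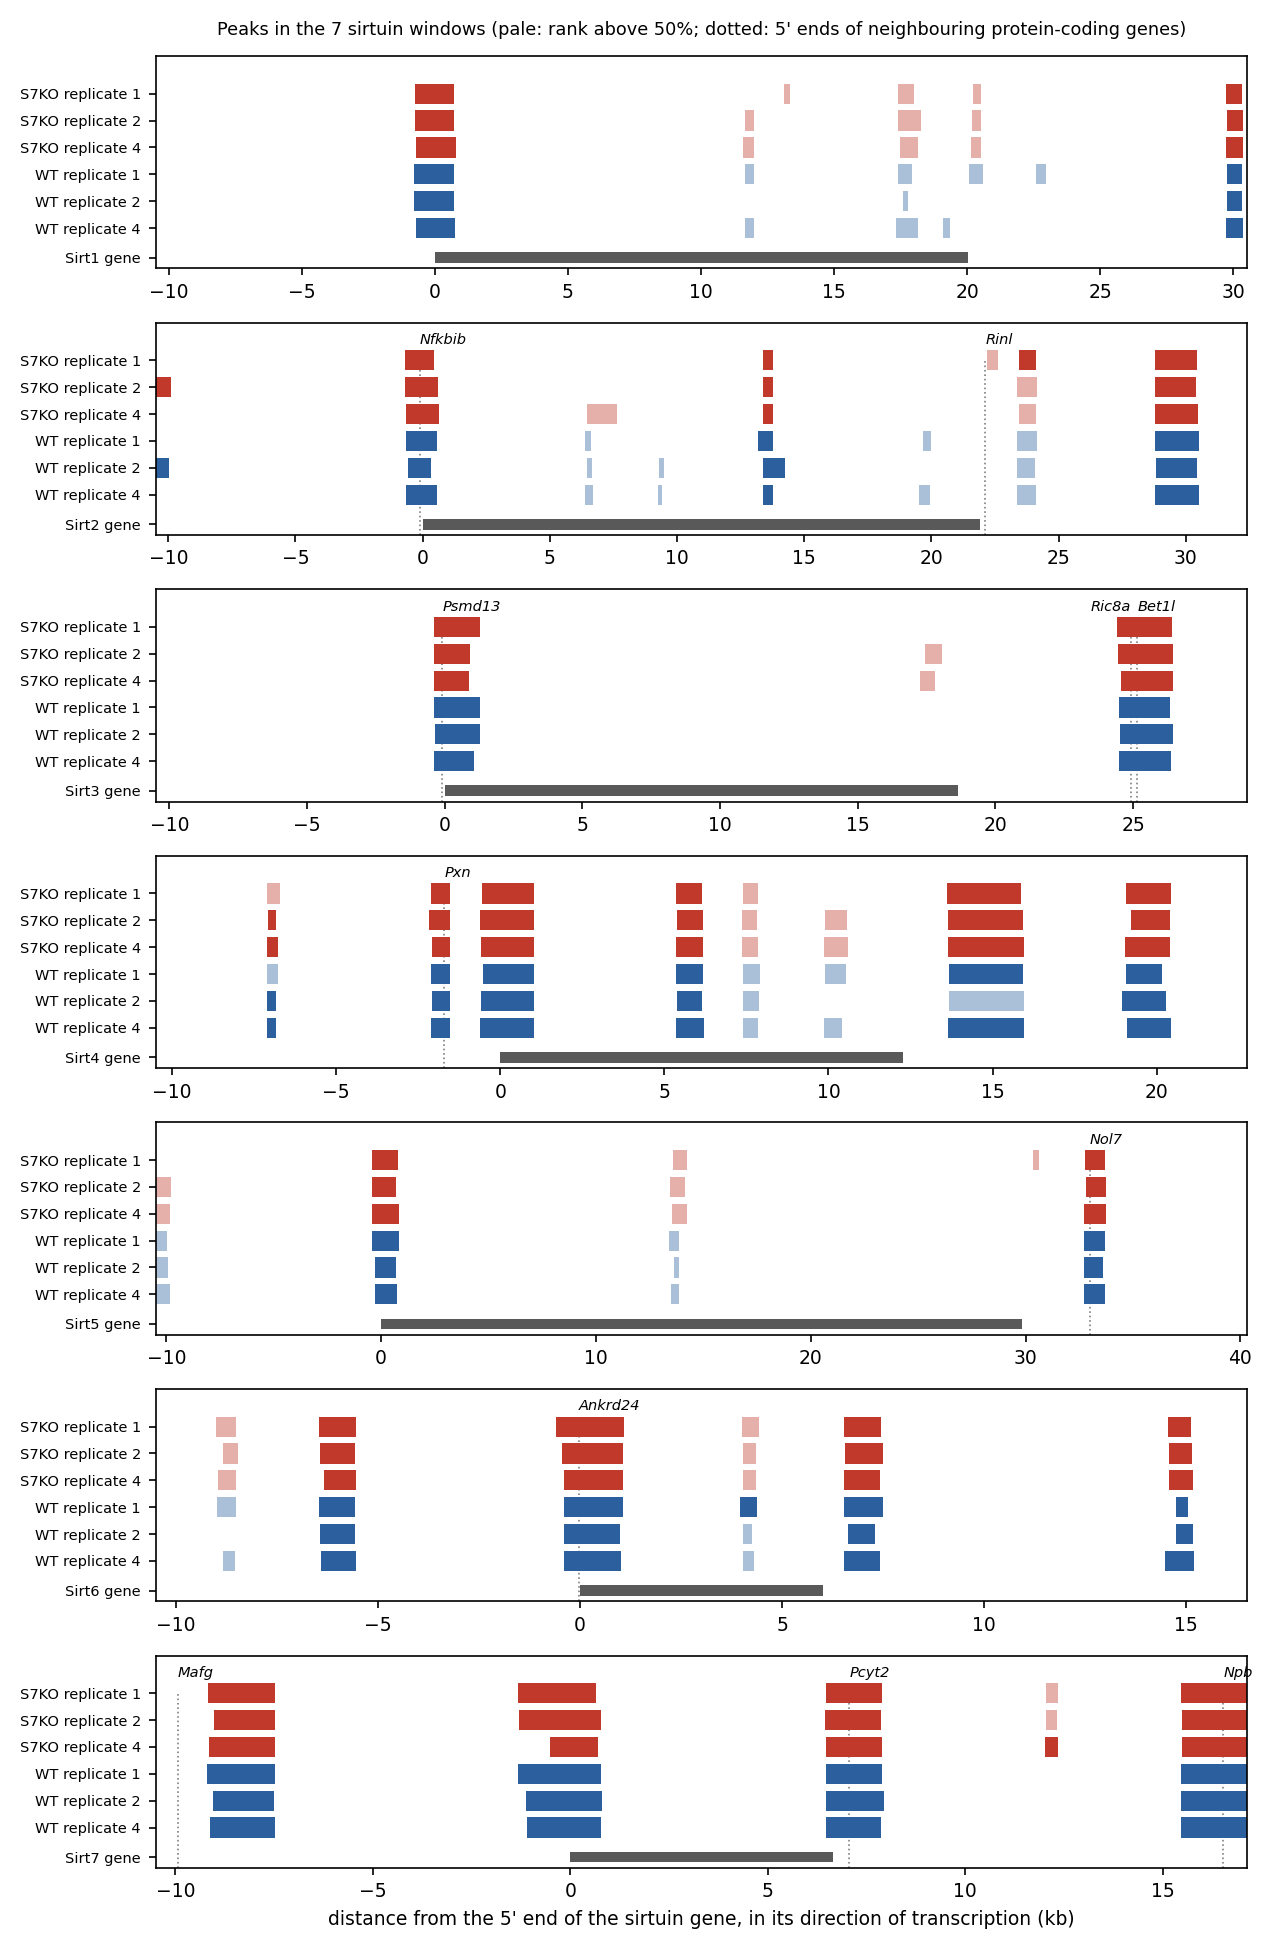
Peaks of the 3 S7KO (red) and 3 WT (blue) libraries in the 7 sirtuin windows, by distance in kb from the 5′ end of the sirtuin in its direction of transcription, with the gene as a grey bar and dotted lines at 5′ ends of neighbouring protein-coding genes. Every 5′ end lies in a peak in all 6 libraries, peaks that are pale rank above 50%, and a narrow peak near 12 kb in the Sirt7 panel is present in S7KO libraries only.

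Sirt1, a nuclear deacetylase of histones and transcription factors, is on chromosome 10 from 63319005 to 63339035 on the minus strand, and no other gene starts in its window. Its promoter peak had a rank of 6.38%, 5.51% and 5.66% in S7KO replicates 1, 2 and 4 and of 5.27%, 6.56% and 4.36% in WT. The groups overlapped (5.85% ± 0.466 against 5.40% ± 1.11, SD, n = 3, exact permutation p = 0.5). With lists of equal length every S7KO library was weaker than every WT library, by 1.01 percentage points on average. The same order was seen without WT replicate 2, by 1.03. The peak spanned 1484 to 1531 bp in all 6 libraries. In the gene body, peaks were few and weak, with ranks between 51.4% and 99.6%. At the far edge of the window, within Herc4, a region with ranks of 10.2% to 21.6% was in all 6 lists. A region just past the 3′ end of Sirt1, from 63318435 to 63318978, was called in the 3 S7KO libraries and in WT replicate 1. The covered length of the window was 2887, 3324 and 3279 bp in S7KO and 3609, 1994 and 3240 bp in WT, with WT replicate 2 the lowest and WT replicate 1 the highest (exact permutation p = 0.8). Without WT replicate 2 the difference of 216 bp became -261 bp.

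Sirt6, a nuclear deacylase with roles in DNA repair, is on chromosome 10 from 81621787 to 81627792 on the minus strand. It starts 28 bases from Ankrd24, which runs the other way, and a single peak covered both 5′ ends in each library, so its strength cannot be assigned to either gene. The rank was 11.2%, 6.13% and 4.17% in S7KO replicates 1, 2 and 4 and 5.78%, 7.68% and 5.22% in WT. The WT values lay inside the S7KO range (7.16% ± 3.62 against 6.23% ± 1.29, SD, n = 3, exact permutation p = 0.8). As at Sirt7, S7KO replicate 1 had the weakest peak, and without it the difference turned from 0.929 to -1.08 percentage points. The strongest region of this window was not the promoter but a region within Ankrd24, from -6457 to -5538 bp relative to the 5′ end of Sirt6, with ranks of 1.14% to 1.64% in S7KO and 1.24% to 1.91% in WT.

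The Sirt6 window was covered over 4945, 4578 and 4539 bp in S7KO replicates 1, 2 and 4 and over 4497, 3543 and 4466 bp in WT replicates 1, 2 and 4. Every S7KO library was above every WT library, with means of 4687 ± 224 and 4169 ± 542 bp (SD, n = 3) and an exact permutation p of 0.1, the smallest that 3 against 3 libraries allow. This order was seen for 3 of the 7 sirtuin windows, Sirt3, Sirt5 and Sirt6, against 6.35% of the 21440 gene windows, and the opposite order for 0 of the 7 against 0.508%. After Benjamini-Hochberg adjustment over all 21440 genes, the adjusted p was 1 for each. Without WT replicate 2, the shortest list, the Sirt6 difference fell from 519 to 206 bp, and with flanks of 5 kb or none the groups overlapped.

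Sirt2, a mainly cytoplasmic deacetylase of tubulin among other proteins, is on chromosome 7 from 28766752 to 28788665 on the plus strand. It lies head to head with Nfkbib, which encodes an inhibitor of NF-kappa-B, with 107 bases between them, and 1 peak covered both 5′ ends. By −log10 q that peak was the best ranked promoter peak of the family. Its rank was 0.813%, 1.19% and 0.654% in S7KO replicates 1, 2 and 4 and 1.14%, 0.421% and 1.20% in WT. The groups overlapped (0.886% ± 0.275 against 0.920% ± 0.433, SD, n = 3, exact permutation p = 0.9). The WT replicate 2 peak was both the best ranked and the narrowest, at 899 bp against 1121 to 1298 bp in the others.

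Sirt2 was the only sirtuin whose window was covered less in S7KO on average. The values were 4251, 4122 and 5210 bp in S7KO and 4806, 4435 and 5048 bp in WT, which overlapped (4528 ± 594 against 4763 ± 309 bp, SD, n = 3, exact permutation p = 0.6). Weak peaks in the gene body differed between libraries. A region from 6383 to 7620 bp past the 5′ end was called in the 3 WT libraries at 195 to 309 bp and in S7KO replicate 4 at 1172 bp. A region from 9238 to 9468 bp was called in WT replicates 2 and 4 only, and one from 19498 to 19991 bp in WT replicates 1 and 4 only. With S7KO replicate 4 left out, or with lists of equal length, every S7KO library was below every WT library, by -576 and -632 bp. Downstream, a region within Rinl had ranks of 16.9%, 14.1% and 17.1% in S7KO and 17.9%, 24.9% and 18.8% in WT, so each S7KO library was stronger there.

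Regions with that order, every S7KO library stronger than every WT library, were 3 of the 30 in the sirtuin windows against 5.98% of regions in all 6 lists. The others were the promoter peak of Sirt3 and the peak over the 5′ end of Sirt4. For promoter peaks of genes, as ranked above, the order was seen for 1 of the 7 sirtuins, Sirt3, against 5.22% of 15867 genes, and its reverse for 0 of the 7 against 1.24%.

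Sirt3, the main deacetylase of mitochondria, is on chromosome 7 from 140863663 to 140882309 on the minus strand. It starts 84 bases from Psmd13, which encodes a subunit of the proteasome lid and runs the other way, and 1 peak covered both 5′ ends. Its rank was 1.36%, 1.53% and 1.05% in S7KO replicates 1, 2 and 4 and 2.40%, 3.34% and 1.60% in WT. The groups did not overlap, although WT replicate 4 lay close to S7KO replicate 2. The means were 1.31% ± 0.240 and 2.45% ± 0.869 (SD, n = 3), a difference of -1.14 percentage points with an exact permutation p of 0.1, the smallest possible here, and an adjusted p of 1 over all genes. Fold enrichment had the same order, at 6.73, 6.50 and 7.23 in S7KO and 5.65, 5.87 and 6.45 in WT. The groups stayed apart without any 1 library, with differences from -1.56 to -0.690, and with lists of equal length. With peaks held to a −log10 q of at least 2 they overlapped.

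The Sirt3 window held few other peaks. A region over the 5′ ends of Ric8a, which encodes a chaperone of G protein subunits, and Bet1l, which encodes a Golgi SNARE protein, had ranks of 1.92% to 2.67% in S7KO and 1.84% to 2.91% in WT, which overlapped. One weak region near the 3′ end was called in S7KO replicates 2 and 4 only, with ranks of 93.7% and 93.1%. The covered length was 3641, 3871 and 3698 bp in S7KO and 3536, 3571 and 3314 bp in WT, every S7KO library being above every WT library (3737 ± 120 against 3474 ± 139 bp, SD, n = 3, exact permutation p = 0.1). With lists of equal length the weak region was no longer listed in those libraries and the difference of 263 bp became -110 bp.

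Sirt4, a mitochondrial sirtuin linked to glutamine and fatty acid metabolism, is on chromosome 5 from 115478006 to 115490264 on the minus strand. It had the most covered window of the family, at 24.2% on average, and the most peaks, with 7 of its 8 regions in all 6 lists. The peak over its 5′ end had ranks of 5.20%, 5.05% and 5.13% in S7KO replicates 1, 2 and 4 and of 5.53%, 6.84% and 5.58% in WT. Each S7KO library was stronger, and the S7KO values lay closer together than those of any other sirtuin, while fold enrichment overlapped at 3.27 to 3.35 against 3.34 to 3.43. The snRNA genes Gm24407 and Gm24265 start under that same peak, 10 and 805 bp from the 5′ end of Sirt4. Its strength thus cannot be assigned to Sirt4 alone. The best ranked peak of the Sirt4 promoter was often another one, which covers the 5′ end of Pxn, the paxillin gene that runs the other way from 1705 bases away. Its ranks were 3.64% to 4.43% in S7KO and 3.99% to 5.71% in WT and overlapped.

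The RefSeq promoter table places the start of Sirt4 5967 bp inside the gene as listed, and there too a peak was called in all 6 libraries, from 5344 to 6205 bp past the 5′ end. Its ranks were 7.03%, 4.97% and 4.04% in S7KO and 5.38%, 7.17% and 6.08% in WT, with no separation of the groups. The lncRNA Gm42007 starts under the same peak. The covered length of the whole window was 7473, 7968 and 8205 bp in S7KO and 7838, 7325 and 8037 bp in WT, a difference of 149 bp that was smaller than either SD (374 and 367 bp, n = 3, exact permutation p = 0.6).

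Sirt5, the mitochondrial desuccinylase, is on chromosome 13 from 43365389 to 43395203 on the plus strand. Its promoter is not shared with another gene. The peak there had ranks of 8.52%, 6.86% and 7.93% in S7KO replicates 1, 2 and 4 and of 8.91%, 7.09% and 5.04% in WT, with both the weakest and the strongest value in WT (7.77% ± 0.842 against 7.01% ± 1.94, SD, n = 3, exact permutation p = 0.7). A region past the 3′ end covers the 5′ end of Nol7, a gene of a nucleolar protein, and was the strongest of the window, with ranks of 1.93% to 3.26% in S7KO and 1.86% to 3.99% in WT.

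The Sirt5 window was the least covered of the family, at 5.58% on average, which is below the median of 6.91% over all genes. Covered length was 3056, 2976 and 3165 bp in S7KO and 2751, 2165 and 2555 bp in WT. Every S7KO library was above every WT library, with means of 3066 ± 94.9 and 2490 ± 298 bp (SD, n = 3, exact permutation p = 0.1, adjusted p = 1 over all genes). This order was also seen with flanks of 5 kb and with none, with lists of equal length, with a −log10 q of at least 2 and without any 1 library. At Sirt6 it was seen under the same settings other than the shorter flanks, and at Sirt3 only without any 1 library. A large part of the difference in the gene body lay in a weak region 13395 to 14244 bp past the 5′ end, chosen for description after its values were seen. It was 655, 703 and 705 bp wide in S7KO and 451, 235 and 373 bp in WT, with ranks of 63.1% to 78.6% and 62.4% to 72.6% that overlapped. Thus the peak was wider but not better ranked in S7KO.

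**Figure D3:**
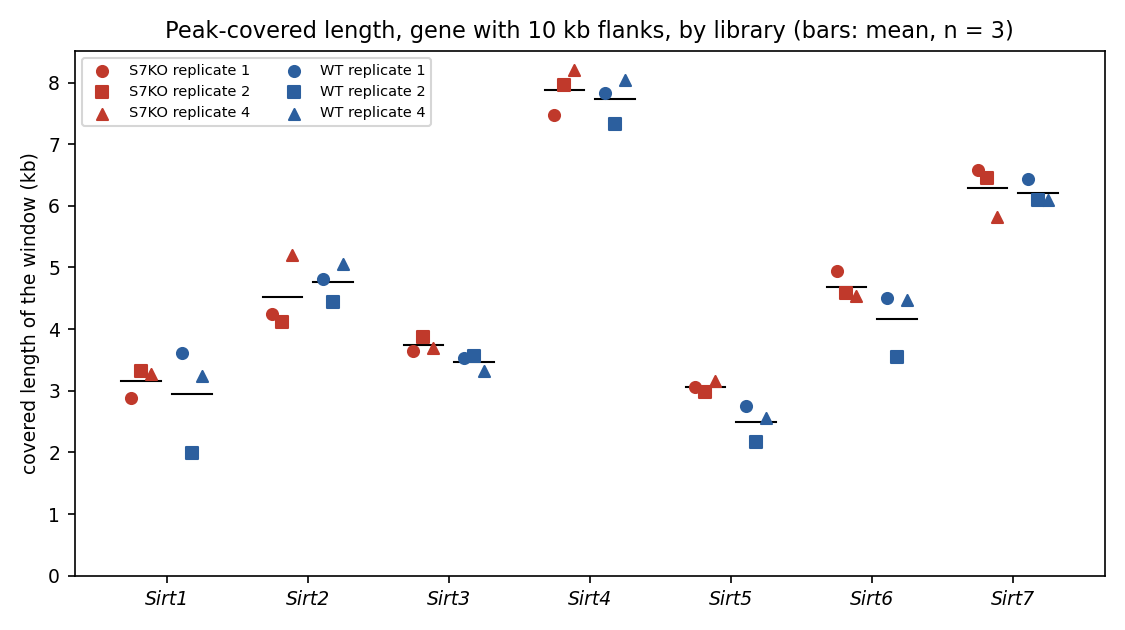
Length covered by peaks in the window of each sirtuin (kb, axis from 0) in the 3 S7KO libraries (red) and the 3 WT libraries (blue), with black bars at the group means. The groups do not overlap for Sirt3, Sirt5 and Sirt6, and for each gene but Sirt3 the lowest WT value is that of WT replicate 2.

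Set side by side, the 7 genes differed by -1.14 to 1.02 percentage points at their promoters, in no common direction. The difference in rank, S7KO minus WT, was 1.02 percentage points for Sirt7, 0.929 for Sirt6, 0.760 for Sirt5, 0.450 for Sirt1, -0.0338 for Sirt2, -0.590 for Sirt4 and -1.14 for Sirt3. A positive value means a weaker peak in S7KO, which 4 of the 7 sirtuins had, against 32.7% of genes. Each of these 4 signs turned when 1 library was left out, to -2.26 at Sirt7 and -1.08 at Sirt6 without S7KO replicate 1 and to -0.226 at Sirt5 and -0.0698 at Sirt1 without WT replicate 4. The family median was 0.450 and that over all genes -0.286, while the middle 80% of genes spanned -3.85 to 1.14, a range that holds all 7 sirtuins. Since ranks cannot fall below 0, Sirt2 and Sirt3, with WT means of 0.920% and 2.45%, could not have passed its lower end. No difference passed the exact permutation test, which with 3 libraries in each group cannot go below p = 0.1. In covered length, 6 of the 7 were higher in S7KO, against the 67.1% of genes given above, with a family median of 216 bp and a median over all genes of 131 bp. Over all genes the middle 80% spanned -103 to 874 bp, and Sirt2 at -235 bp was the member outside it. Sirt7 itself, at 76.3 bp, was below the median of all genes.

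**Figure D4:**
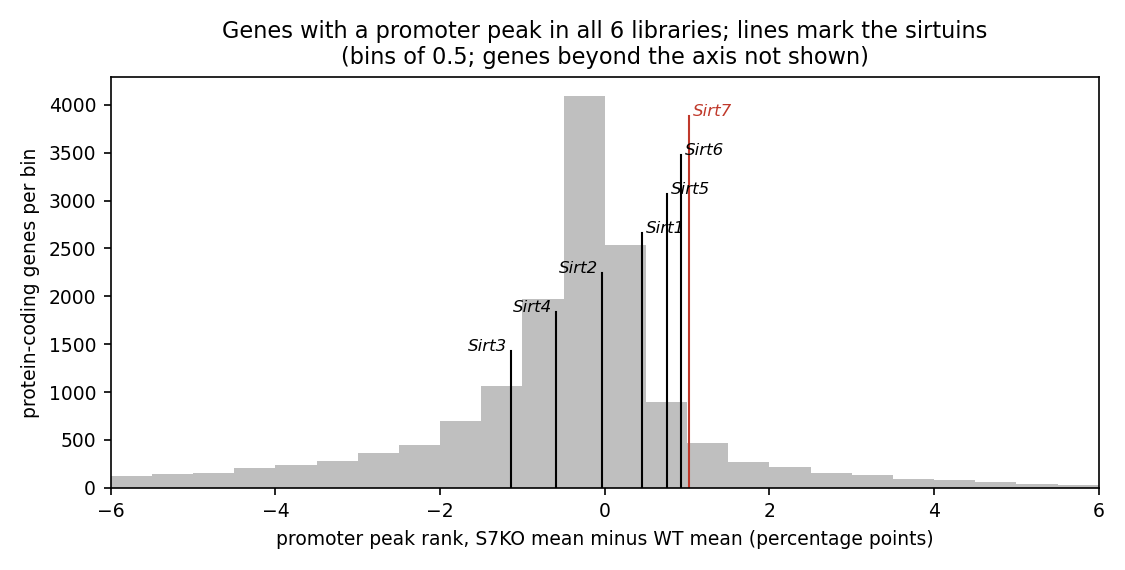
Histogram over protein-coding genes with a promoter peak in all 6 libraries of the rank difference, S7KO mean minus WT mean (percentage points, bins of 0.5), with vertical lines at the 7 sirtuins and Sirt7 in red. All 7 lie between -1.14 and 1.02, inside the range of -3.85 to 1.14 that holds the middle 80% of genes. Sirt2 and Sirt3, with WT means of 0.920% and 2.45%, could not reach its lower end, since ranks stop at 0.

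Across the windows, 30 of the 44 regions (68.2%) were called in all 6 libraries, against 57.1% of regions over the genome. Of the 44, 10 covered the 5′ end of another protein-coding or lncRNA gene. Other gene types were not counted, such as the miRNA gene Mir6936 under the Sirt7 promoter peak. The median rank of the 30 regions was 16.3%, against 37.8% for all regions in all 6 lists. The remaining 14 were weak or patchy, 9 in 2 to 5 libraries and 5 in a single one. Sirt2 had 9 regions, of which 5 were in all 6 lists, and Sirt1 and Sirt4 had 8 each, of which 3 and 7 were in all 6 lists. The number of peaks summed over the 7 windows was 34, 36 and 36 in S7KO replicates 1, 2 and 4 and 36, 32 and 36 in WT replicates 1, 2 and 4, so that WT replicate 2 again had the fewest.

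The genes that supply and consume NAD+, the cosubstrate of sirtuins, and the zinc-dependent histone deacetylases were set beside the family. Of 18 NAD+ genes, 15 had a promoter peak in all 6 libraries, against 74.0% of all protein-coding genes. Their median rank was 5.04%, against 8.04% over all genes with such a peak. Nmnat3 had one in 3 libraries, Nnmt in 4, and Nmrk2, a nicotinamide riboside kinase gene, in none. In this list, 0 of 18 windows and 0 of 15 promoter ranks separated S7KO from WT in either direction, against the 6.35% and 0.508% of windows and the 5.22% and 1.24% of promoter ranks over all genes. Of 11 histone deacetylase genes, 9 had a promoter peak in all 6 libraries, against the same 74.0% of all genes, and Hdac9 had none. The median rank of the 9 was 4.50%, against 5.58% for the sirtuins. The Hdac7 window was covered more in every S7KO library, 1 of 11 against 6.35% of all gene windows, over 12612, 12984 and 12670 bp against 12490, 10887 and 12548 bp in WT, with WT replicate 2 the lowest (exact permutation p = 0.1, adjusted p = 1 over all genes).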

How the data were processed

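ATAC-seq peak lists of 6 libraries (3 S7KO, 3 WT) were analysed, with groups from the genotype label, and both groups were of the 129S1/Sv strain background. The authors trimmed reads with Trim Galore 0.6.6, aligned them to mm10 with Bowtie2 2.4.4.1, filtered with SAMtools 1.19.2, removed mitochondrial reads, shifted ends for the Tn5 cut and called broad peaks per library with MACS2 2.2.5. The deposited columns hold a display score, a fold enrichment (a ratio to the local background), a −log10 p-value and a −log10 q-value per peak (largest q 0.0983). The fragment length class behind the calls could not be settled, since the study's text and methods describe it differently.

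Peaks on chromosomes 1 to 19, X and Y were ranked within their list by −log10 q. Genes came from RefSeq (GRCm38.p6), with strand from the RefSeq promoter table for 17492 genes and from GENCODE by symbol for 3948. Exons were not used here. Regions merged overlapping peaks of all libraries. For covered length and rank, a two-sided exact permutation test took all 20 assignments of libraries (smallest p 0.1), with Benjamini-Hochberg adjustment over all genes, in Python 3.11.15 with numpy 2.4.6 and pandas 2.3.3, and the test was checked on simulated data. Ranks are relative within a list, and a list that holds more weak peaks lowers the rank of a given peak. Text names all 7 sirtuins, the regions over their 5′ ends, regions with groups that do not overlap, the strongest other regions and neighbouring 5′ ends. The plan had been to name the widest region outside each promoter, not the strongest. Some regions outside the plan and this choice are named too, among them weak ones in the Sirt2 gene body and near the 3′ ends of Sirt1 and Sirt3. Their choice was not planned, and they serve as description only. Members and lists were chosen with earlier results of these data known. Deviations of same-numbered libraries had a correlation of 0.103, -0.184 and 0.457 for numbers 1, 2 and 4 over 21440 genes. These values cannot decide whether such libraries were handled together. In the main tests the numbers were taken as names. Alternatives were a −log10 q minimum, lists of equal length, other flanks, other promoter and rank definitions, and each library left out. Protein sequences were not used here.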

Additional observations from a re-analysis of the deposited data

How the results depend on the processing

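Precision is limited by 3 libraries per genotype and by lists without depth. Of 168 alternatives to the 14 tested differences, 149 kept the direction and 19 reversed. The 149 include the pairing of same-numbered libraries for each of the 14, which cannot change a mean difference. No exact test gave a p below 0.1, and none could with so few libraries. With lists of equal length, covered length differed by -106 bp at Sirt1 and -110 bp at Sirt3. At Sirt7 it differed by -228 bp with flanks of 5 kb and -70.0 bp with none, and the rank by -3.14 percentage points by fold enrichment. The cause was not tested.

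Leaving out 1 library at a time, the covered length difference ranged from -261 to 546 bp at Sirt1, -576 to -32.5 at Sirt2, 183 to 312 at Sirt3, -55.5 to 353 at Sirt4, 413 to 706 at Sirt5, 206 to 683 at Sirt6 and -70.0 to 306 at Sirt7. The rank difference ranged from -0.0698 to 1.03 percentage points at Sirt1, -0.283 to 0.105 at Sirt2, -1.56 to -0.690 at Sirt3, -0.931 to -0.158 at Sirt4, -0.226 to 1.71 at Sirt5, -1.08 to 2.42 at Sirt6 and -2.26 to 2.74 at Sirt7.

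The 3 windows with separate groups became 1 with flanks of 5 kb and 1 with none, Sirt5 in both, and 5 without S7KO replicate 4. Those 5 were Sirt2, covered less in S7KO, and Sirt3, Sirt5, Sirt6 and Sirt7, covered more. With lists of equal length the count stayed 3, with Sirt2, covered less in S7KO, in place of Sirt3. The 1 separate promoter became 0 at a −log10 q of at least 2 and 2 with equal lists, a 1 kb promoter or the nearest peak. It was 2 without WT replicate 2 and without WT replicate 4. The promoter added to Sirt3 was Sirt1, weaker in every S7KO library, with equal lists and without WT replicate 2. With a 1 kb promoter, with the nearest peak and without WT replicate 4 it was Sirt4, stronger in every S7KO library. The 1 region called in S7KO only became 0 with flanks of 5 kb or none and ranged from 1 to 2 without 1 library, and that in WT only from 0 to 1. The mean number of peaks in the windows, 35.3 in S7KO, became 33.0 at the q limit, 31.0 with equal lists, 23.3 with 5 kb flanks, 16.7 with none and 33.3 by midpoint, and the 34.7 in WT became 32.0 with equal lists, 23.7, 18.0 and 32.3.

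The replicate block pairs libraries of the same number. By arithmetic, the mean of its paired differences is the difference in group means. Examples are 575 bp at Sirt5 and -1.14 percentage points at Sirt3. It thus cannot test the size of a difference, and its exact sign-flip permutation test cannot go below p = 0.25. The start from the promoter table was added after the data were seen.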

Other observations

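The genes whose share of covered window followed that of Sirt7 most closely across the 6 libraries were Plekhh3 (Pearson r = 0.9834), Ccr10 (0.9813), Adgrl1 (0.9768), Cdkn2b (0.9759) and Plin3 (0.9749). They were picked as the highest of 18505 genes, of which 21 (0.113%) had r of at least 0.95, and the libraries share their depth and list length across all genes, so the values are given as a description only. Neighbouring genes share parts of windows: the regions of Sirt2, Sirt3, Sirt4 and Sirt6 near their 5′ ends also belong to Nfkbib, Psmd13, Pxn and Ankrd24.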
